A study of Mus musculus with 2 samples.

Results

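S-phase basal interfollicular keratinocytes (KCs) were the cells of newborn epidermis that carried basal keratins, had few transcripts of suprabasal keratins and of the follicle genes Lhx2 and Ptch1, and held many transcripts of DNA replication genes but few of mitosis. They were chosen from 2 single-cell RNA sequencing libraries by the measured unique molecular identifiers (UMIs, 1 per captured transcript) of 15 genes. A cell had to have 900 to 7700 detected genes and under 10% mitochondrial UMIs. Krt14 and Krt5 together had to make up at least 0.8% of its UMIs and Krt1 and Krt10 less than 0.8%. Lhx2 and Ptch1 could each have at most 1 UMI, and Cenpf, Ccnb1 and Ube2c together at most 2. Rrm2 had to have at least 1 UMI, and the sum of Rrm2, Mcm3, Mcm5, Ung, E2f1 and Uhrf1 (the S-phase sum) had to reach 8. This left 63 cells of mouse 1 and 116 cells of mouse 2, 179 of the 19488 cells that passed the filter on genes and mitochondrial UMIs and of 26683 deposited barcodes. 

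Both libraries came from epidermis of male Chrm3 KO mice of the C57BL/6J strain at postnatal day 0, with 1 library per mouse. Chrm3 encodes the M3 muscarinic acetylcholine receptor, and the knockout is carried by every cell described here. The skin had been kept overnight in separation buffer, and the epidermal cells were filtered and cleared of dead cells. Wild-type libraries were not analysed here, so every comparison is between cell populations within the KO epidermis and none is between genotypes. Values are given for mouse 1 first and mouse 2 second throughout.

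The comparisons used 3 other populations, cut from the same cells so that none overlapped. Resting basal KCs met the same limits on keratins, Lhx2, Ptch1 and mitotic transcripts but had no Rrm2 UMI and an S-phase sum of at most 1 (1137 and 1752 cells). G2/M basal KCs met the keratin, Lhx2 and Ptch1 limits and had at least 8 UMIs of Cenpf, Ccnb1 and Ube2c (77 and 130 cells). S-phase follicle cells met the rule of the S-phase basal KCs except that they had at least 3 Lhx2 UMIs (7 and 15 cells). For tests, UMIs were summed per mouse and population, because cells of 1 mouse are not replicates, and n is therefore 2 mice. Levels are CPM, the counts scaled to a fixed total of UMIs, after TMM normalization, and differences are on the log2 scale, each with its standard error (SE). Levels in melanocytes, in single cells and in bins of cells are scaled by total UMIs alone, without TMM.

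The 63 and 116 S-phase basal KCs held 902724 and 1712625 UMIs in sum. The median cell had 13709 and 13040.5 UMIs and 3615 and 3389 genes, whereas the median resting basal KC had 8511 and 8467.5 UMIs. G2/M basal KCs were the deepest, with medians of 14915 and 15382.5 UMIs. Because the S-phase sum is a count of UMIs and not a share, shallow cells could reach it less easily, and part of the gap in depth follows from the rule. Among all basal interfollicular epidermis (IFE) cells within the keratin, Lhx2 and Ptch1 limits, S-phase KCs made up 3.72% in mouse 1 (63 of 1695, exact 95% binomial interval 2.87 to 4.73) and 4.19% in mouse 2 (116 of 2768, 3.48 to 5.01). The mean was 3.95% ± 0.335 (SD, n = 2), and the intervals of both mice overlapped. These intervals cover counting error only.

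**Figure D1:**
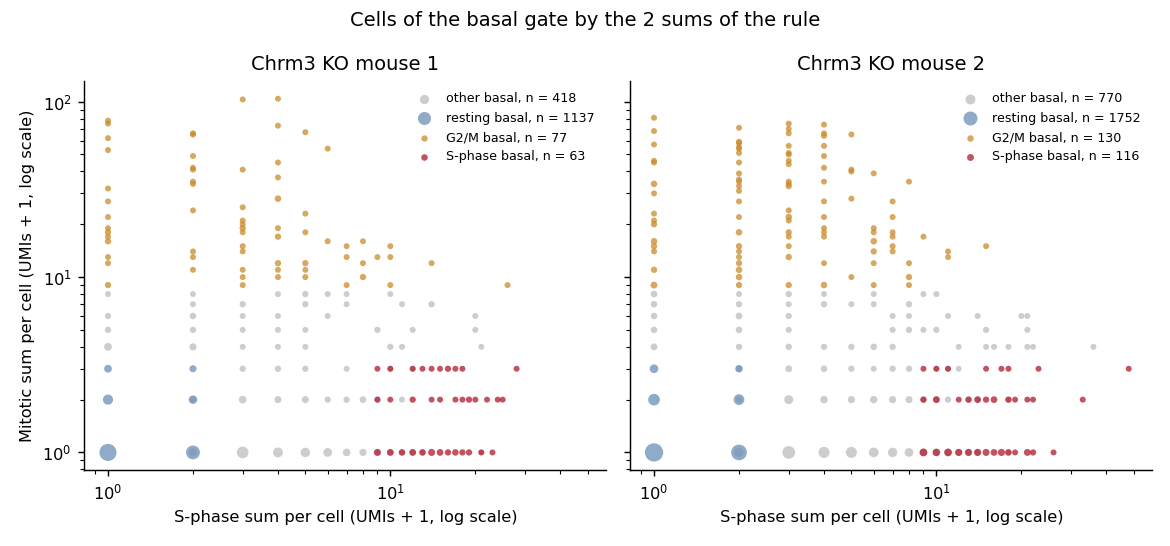
Each cell of the basal IFE gate by its summed UMIs of the 6 replication genes (x axis, UMIs plus 1, log scale) and of Cenpf, Ccnb1 and Ube2c (y axis, log scale), in 1 panel per mouse. Points are coloured by population and grow with the number of cells at that position. The 63 and 116 S-phase cells lie at a sum of 8 or to the right of it and at or under 2 mitotic UMIs, apart from the 77 and 130 G2/M cells above them.

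The rule cut a continuous range. At an S-phase sum of 7, just outside it, lay 3 and 10 cells that met every other limit, and at a sum of 8, just inside, 6 and 15. The median sum of the S-phase basal KCs was 13 and 12, and the highest 27 and 47. Another 17 and 19 cells met the S-phase limits but had more than 2 mitotic UMIs, and 4 and 2 of them were counted as G2/M. Scrublet, a doublet score, exceeded 0.2 in 1 and 1 of the S-phase basal KCs, and 0 and 4 had more than 30000 UMIs. The libraries had 127 barcodes in common, of which 2 belonged to an S-phase basal KC in 1 of the mice, and no barcode was an S-phase basal KC in both.

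The label held for basal KCs but only in part for interfollicular ones. Markers of the basal layer that the rule had not used were present in the S-phase cells. Col17a1, a collagen of the hemidesmosome, stood at 484 and 400 CPM, and Itga6, the alpha-6 integrin, at 266 and 203 CPM. In a reference of 425 and 704 melanocytes (cells with at least 10 UMIs of melanocyte markers), Col17a1 stood at 26.0 and 24.9 CPM and Itga6 at 57.3 and 53.4 CPM, and only the former is read as a level of free RNA. Of 14 follicle markers, Krt17 was the most abundant in the S-phase basal KCs, at 1789 and 2775 CPM, against 268 and 444 CPM in the melanocytes, so it was above free RNA. Dkk4, Wif1 and Hhip were at 0 in both mice and Shh in mouse 1. Krt79, a keratin of the upper follicle, stood at 91.2 and 1466 CPM in the S-phase cells. In them 3 of 63 and 6 of 116 had at least 5 Krt79 UMIs and held 69.1% and 97.3% of the Krt79 UMIs. The limits on Lhx2 and Ptch1 thus did not remove cells with upper follicle keratins.

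Other cell types were near absent. All 5 T cell markers and all 6 Merkel cell markers were at 0 in both mice, and all 10 Langerhans cell markers were at 0 in mouse 1 and summed to 7.42 CPM in mouse 2. The 5 endothelial markers were at 0 and 0.618 CPM. In the G2/M basal KCs of mouse 1, T cell markers summed to 62.5 CPM (Cd3g at 27.8 CPM), and their part in comparisons with G2/M cells was not tested. The 8 melanocyte markers summed to 12.4 and 7.42 CPM, led by Pmel (5.63 CPM) in mouse 1 and Dct (3.71 CPM) in mouse 2. The 10 dermal markers summed to 281 and 194 CPM, nearly all of it Postn (278 and 190 CPM), while Col1a1, Lum and Pdgfra were at 0 in both mice. Krt1 stood at 320 and 877 CPM and Krt10 at 403 and 818 CPM, below the 406 and 1235 CPM of Krt1 and the 825 and 1373 CPM of Krt10 in the melanocytes, and such levels are read as background.

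Chrm3 (chromosome 13, 9875486 to 10360847, minus strand, GRCm38) had 0 UMIs in the S-phase basal KCs of both mice. At this depth a count of 0 allows up to 3.32 and 1.75 CPM, taken as 3 counts of the total. Resting basal KCs had 2 and 5 UMIs, and all cells that passed the filter had 13 and 19, so transcripts counted as Chrm3 were found in the KO epidermis. Whether they came from the deleted part of the gene cannot be told from UMI counts.

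During S phase a cell copies its DNA once. In the G1 phase before it, the origin recognition complex, Cdc6 and Cdt1 load the Mcm helicase onto origins of replication, and cyclin E with Cdk2 and the kinase Cdc7 with Dbf4 then start the forks. E2F transcription factors, released from the Rb proteins, switch on much of this machinery at the border of G1 and S, while many mitotic genes carry CCAAT boxes and the cell cycle homology region (CHR) in their promoters and peak later. In newborn epidermis, divisions take place mainly in the basal layer, from which cells move up and differentiate.

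The rule used no promoter sequence, and the promoters of the lists are described here whether or not their genes were called. Promoters from RefSeq (GRCm38.p6, 250 bases before to 50 after the start site) were searched on both strands for 4 words of the E2F site, TTTCCCGC, TTTCGCGC, TTTGCCGC and TTTGGCGC. A word was found in 8 of 23 promoters of the helicase and licensing genes (34.8%), 10 of 32 of the polymerase and fork genes (31.3%), 6 of 25 of the chromatin assembly genes (24%) and 10 of 37 of the E2F and G1/S control genes (27.0%). The share was 744 of 32851 (2.26%) over all promoters and 405 of 9465 (4.28%) over promoters of the genes tested. It was 3 of 53 (5.66%) for mitosis genes and 1 of 23 (4.35%) for nucleotide synthesis genes. Promoters of all genes called higher in S-phase than in resting basal KCs had it in 92 of 597 (15.4%), and those of genes called lower in 2 of 102 (1.96%). The cells had been chosen by 6 replication genes, E2f1 among them, which favours genes that rise together with these. The shares of the called genes are therefore descriptions. The examples are from genes that were called higher in S-phase than in resting basal KCs. They are stretches before the start site, on the strand of the gene, with the matched words or their reverse complements in capitals.
Mcm7 (chr5:138172021-138172068, minus strand): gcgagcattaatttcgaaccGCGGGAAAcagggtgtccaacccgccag
Mcm6 (chr1:128359725-128359835, minus strand): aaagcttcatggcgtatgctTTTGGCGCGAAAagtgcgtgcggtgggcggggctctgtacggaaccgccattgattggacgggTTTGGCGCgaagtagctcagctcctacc
Cdc6 (chr11:98907993-98908040, plus strand): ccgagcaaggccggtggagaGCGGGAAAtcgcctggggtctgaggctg
Pola1 (chrX:93632266-93632313, minus strand): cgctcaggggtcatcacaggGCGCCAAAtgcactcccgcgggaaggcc
Dnmt1 (chr9:20952815-20952862, minus strand): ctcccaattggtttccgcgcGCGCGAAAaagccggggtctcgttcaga
Hells (chr19:38930908-38930955, plus strand): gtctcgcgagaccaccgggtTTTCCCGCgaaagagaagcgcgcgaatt
Topbp1 (chr9:103305178-103305225, plus strand): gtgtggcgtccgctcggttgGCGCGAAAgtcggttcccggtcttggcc
Dtl (chr1:191575545-191575572, minus strand): atcagaaagcgtgacgtcagTTTGGCGC

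Other words were searched as well, and were frequent in promoters of mitosis genes. CCAAT was present in 40 of 53 of their promoters (75.5%) and in 37.4% of all promoters, and a CHR word (TTTGAA or TTTAAA) in 38 of 53 (71.7%) and in 27.6% of all promoters. Over promoters of the genes tested, the shares were 37.3% for CCAAT and 19.3% for CHR. The words were not limited to mitosis genes, since promoters of chromatin assembly genes held CCAAT in 64% and CHR in 48%, and those of helicase genes CCAAT in 56.5% and CHR in 34.8%. The CHR words were added after the data had been seen. Smc2 and Prc1 are shown because both were already higher in S-phase than in resting basal KCs. Capitals mark CCAAT and the CHR word or its reverse complement. A match describes the letters only and is not a test of binding.
Smc2 (chr4:52439056-52439126, plus strand): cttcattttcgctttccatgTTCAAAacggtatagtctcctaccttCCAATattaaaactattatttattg
Prc1 (chr7:80294394-80294471, plus strand): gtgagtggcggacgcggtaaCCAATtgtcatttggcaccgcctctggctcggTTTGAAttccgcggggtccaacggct

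Among the 6 replication genes that chose the cells, Rrm2, the small subunit of ribonucleotide reductase, stood at 169 and 185 CPM in S-phase basal KCs. E2f1 stood at 79.9 and 76.6 CPM against 1.47 and 1.85 CPM in resting basal KCs. Mcm5 stood at 167 and 169 CPM, Mcm3 at 186 and 164 CPM and Uhrf1, which brings Dnmt1 to replicated DNA, at 200 and 174 CPM. Because these genes defined the cells, their levels are descriptions. Ung, which removes uracil from DNA, stood at 179 and 180 CPM against 9.30 and 12.1 CPM in resting and 6.07 and 4.79 CPM in G2/M basal KCs, whereas Uhrf1 was still at 93.7 and 89.5 CPM in G2/M. Neither mouse had a higher level of all 6 genes.

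The comparison with resting basal KCs asked which genes, other than those of the rule, differ between basal KCs with and without replication transcripts. With the quasi-likelihood test of edgeR (p-values adjusted by Benjamini and Hochberg), 626 of 9332 genes tested (6.71%) were higher in S-phase basal KCs and 100 (1.07%) were lower. With the mouse as a block, 1095 genes were called, 822 higher and 273 lower. Without cells over 30000 UMIs, 998 were called, 749 of them higher and the others lower. Replication genes rise and fall together in the cell cycle, so that the choice of cells by 6 of them favours the others, and the shares of these lists are read as descriptions of the population.

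Genes that load and start the replicative helicase were higher in 20 of 23 tested (24 in the list; Recql4 was too low to test), and none was lower. Their median difference was 2.18, against -0.01 for all genes tested. Gmnn, geminin, which blocks a second loading of the helicase by binding Cdt1, stood at 260 and 216 CPM in S-phase and 26.7 and 30.6 CPM in resting basal KCs (difference 3.04, SE 0.13). Both S-phase sums lay well above both resting sums. Single cells did overlap, since a Gmnn UMI was counted in 93.7% and 94.0% of S-phase and 20.1% and 20.6% of resting basal KCs. Cdt1, the partner of Gmnn, was higher by 2.65 (SE 0.18). Cdc6, which helps to load the helicase, was nearly absent from resting cells, at 20.3 and 21.6 CPM against 0.587 and 0.548 CPM (5.14, SE 0.37). Cdc45, a part of the moving helicase, was higher by 4.50 (SE 0.30), and the helicase subunit Mcm7 by 2.15 (SE 0.14). The 3 genes that did not pass the test were origin recognition subunits, with differences of -0.23 (Orc3), -0.08 (Orc4) and -0.06 (Orc5), whereas Orc1 differed by 3.93 (SE 0.36) and Orc6 by 1.63 (SE 0.16).

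Polymerase and fork genes were higher in 31 of 33, with none lower and a median of 2.06. Clspn, claspin, which carries the checkpoint signal at stalled forks, had the largest difference of the list. It stood at 159 and 145 CPM in S-phase basal KCs and at 2.06 and 3.56 CPM in resting ones (5.68, SE 0.25; adjusted p = 8.8e-08). After each cell had been thinned to 6500 UMIs, 60.3% and 54.3% of S-phase basal KCs had a Clspn UMI (74.6% and 70.7% unthinned), against 1.03% and 2.07% of resting basal KCs (1.85% and 2.68% unthinned). Lig1, the ligase that joins Okazaki fragments, stood at 179 and 179 CPM against 13.3 and 16.3 CPM (3.58, SE 0.19). Rpa2, a subunit of the protein that covers single-stranded DNA, was higher by 2.46 (SE 0.15), and Tipin, which steadies the fork, by 2.06 (SE 0.13). Pcna, the sliding clamp, was at 182 and 133 CPM against 30.3 and 32.2 CPM (2.31, SE 0.17). Pole4 (0.35) and Rpa3 (0.83) did not pass the test.

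Of 23 nucleotide synthesis genes, 17 were higher and none was lower, with a median of 1.20. Genes of thymidylate and of deoxynucleotides had large differences. Tk1, thymidine kinase, stood at 163 and 120 CPM against 7.14 and 9.60 CPM (4.03, SE 0.20). Tyms, thymidylate synthase, differed by 3.19 (SE 0.17) and Rrm1, the large subunit of ribonucleotide reductase, by 2.95 (SE 0.14). Purine genes moved less. Paics differed by 0.80 (SE 0.12) and Impdh2 by 0.60 (SE 0.13), and Gart (0.44) and Adsl (0.53) did not pass the test.

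Chromatin assembly genes, which package and mark the new DNA, were higher in 19 of 24 with a median of 1.47. Slbp, which binds the stem-loop of histone mRNAs, stood at 177 and 173 CPM against 23.2 and 29.7 CPM (2.71, SE 0.15). Asf1b, a histone chaperone, stood at 61.9 and 64.9 CPM against 2.74 and 4.32 CPM (4.12, SE 0.22), while its relative Asf1a differed by 0.16 (SE 0.13) and did not pass the test. Dnmt1, which copies DNA methylation, stood at 155 and 165 CPM against a mean of 28.5 CPM, and the chromatin ATPase Atad2 was higher by 3.52 (SE 0.19). Nasp, another histone chaperone, stood at 417 and 463 CPM against 88.0 and 116 CPM (2.11, SE 0.17).

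Repair genes were higher in 27 of 38 tested (43 in the list), with a median of 1.85. Brca1, which acts in repair by recombination, stood at 87.8 and 38.9 CPM, with the higher level in mouse 1, against 1.17 and 1.71 CPM (5.31, SE 0.38). The nuclease Exo1 stood at 64.2 and 59.3 CPM against 2.15 and 2.88 CPM (4.57, SE 0.28) and Usp1, a deubiquitinase of the Fanconi pathway, was higher by 1.79 (SE 0.11). Atr (-0.10) and Tdg (0.09) had differences near 0 and did not pass the test.

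**Figure D2:**
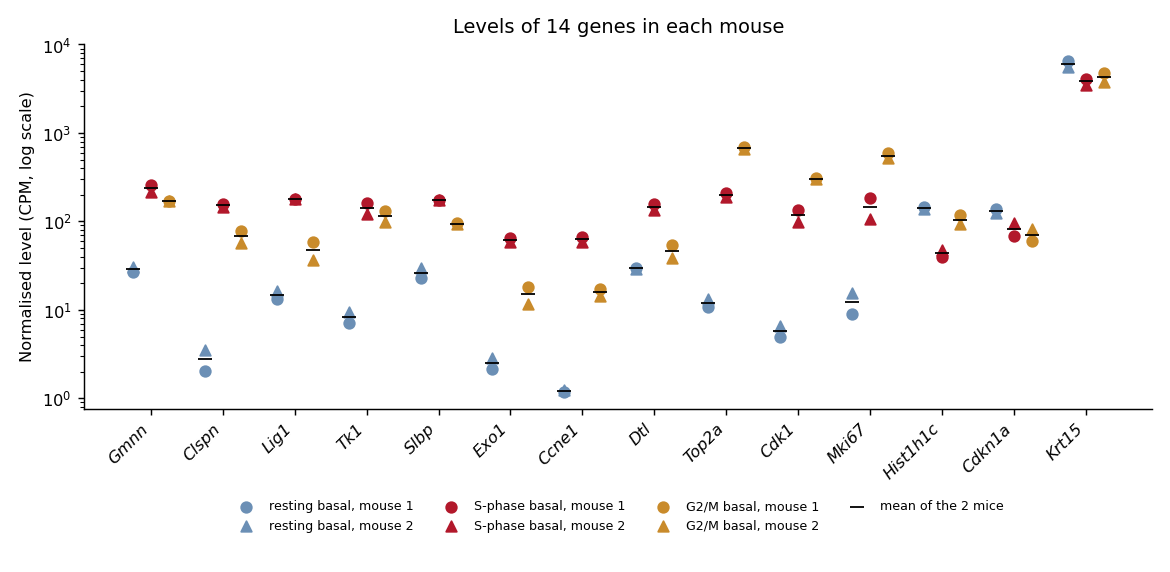
CPM (log axis) of 14 genes in resting, S-phase and G2/M basal KCs. Each point is 1 mouse and each dash the mean of both. Clspn, Ccne1, Lig1 and Dtl are highest in S-phase cells, Top2a, Cdk1 and Mki67 rise further in G2/M cells, and Hist1h1c and Cdkn1a are lower in S-phase than in resting cells.

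Genes of E2F and of G1/S control were split. Of 35 tested, 17 were higher and 1 was lower. Ccne1, cyclin E1, showed the sharpest contrast, with 67.6 and 58.7 CPM in S-phase and 1.17 and 1.23 CPM in resting basal KCs (5.66, SE 0.25). At 6500 UMIs per cell, 28.6% and 24.1% of S-phase basal KCs had a Ccne1 UMI (54.0% and 50.9% unthinned), against 0.411% and 0.553% of resting ones (1.06% and 1.03% unthinned). Ccne2, the other cyclin E, differed by 3.81 (SE 0.42). Fbxo5, an inhibitor of the anaphase-promoting complex, differed by 3.36 (SE 0.26), Mybl2 by 4.66 (SE 0.39) and Dtl, which marks Cdt1 for destruction, by 2.30 (SE 0.15). The partner kinase of cyclin E, Cdk2, differed by 0.81 (SE 0.23) and did not pass the test. Cyclin D1 (Ccnd1) stood at 146 and 104 CPM against 49.2 and 52.8 CPM (1.26, SE 0.20).

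Inhibitors of cyclin-dependent kinases went different ways. Cdkn1a, which encodes p21, was the lower gene of the list, at 68.7 and 95.2 CPM in S-phase against 139 and 125 CPM in resting basal KCs (-0.65, SE 0.16; adjusted p = 0.032). Both S-phase values lay below both resting ones. The call was lost with DESeq2 (-0.67) and at an S-phase sum of 12 (-0.39), while among cells of middle depth the difference was -1.28. Cdkn2c and Cdkn2d, of the Ink4 family, were higher by 2.65 (SE 0.29) and 1.66 (SE 0.21). Cdkn1b, which encodes p27, stood at 70.9 and 47.0 CPM against 77.3 and 55.9 CPM and did not pass the test (-0.23, SE 0.27). Among 17 p53 targets tested, 2 were lower and none was higher, beside 1.07% and 6.71% of all genes. They were Cdkn1a and Bbc3 (-1.53, SE 0.42), and neither was called with DESeq2.

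Mitosis genes were already higher than in resting cells in 43 of 58, with none lower and a median of 1.97, although the rule had limited 3 mitotic transcripts. Smc2, a subunit of condensin, stood at 254 and 206 CPM against 16.9 and 16.5 CPM (3.77, SE 0.14). Top2a, topoisomerase II alpha, stood at 212 and 188 CPM against 10.8 and 13.4 CPM (4.02, SE 0.16), and Cdk1, the mitotic kinase, at 135 and 99.5 CPM against 4.89 and 6.58 CPM (4.29, SE 0.23). Mki67, the proliferation marker Ki-67, was higher by 3.48 (SE 0.29) and Prc1, which crosslinks the central spindle, by 2.69 (SE 0.15). Not all mitosis genes passed the test. Cenpa, the centromere histone, was at a mean of 16.6 CPM against 18.9 CPM (-0.28, SE 0.24), and Ccnb2, cyclin B2, at 5.63 and 10.5 CPM against 3.03 and 3.98 CPM (1.28, SE 0.40), and neither passed the test.

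Cohesion genes, which hold sister chromatids together, were higher in 6 of 14 with a median of 0.39, beside 6.71% of all genes. Esco2, the acetylase that closes cohesin during replication, stood at 64.2 and 64.3 CPM against 0.979 and 2.12 CPM (5.27, SE 0.36). Cdca5, sororin, differed by 4.61 (SE 0.41). The cohesin ring itself moved little, with Smc3 at 0.75 (SE 0.14) and Smc1a at 0.54 (SE 0.13). The loaders Nipbl (-0.26) and Mau2 (-0.55) did not pass the test.

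Histone genes had 2 exceptions. Replication-dependent histone mRNAs end in a stem-loop and mostly lack the poly(A) tail by which these libraries capture RNA. How far this sets their levels was not tested. Several copies are also near-identical and hard to tell apart. Hist1h1b, the most abundant of these genes, stood at 583 and 489 CPM in S-phase and 1820 and 1089 CPM in G2/M basal KCs. Of 33 such genes 18 could be tested, and 11 were higher and 2 lower in S-phase than in resting basal KCs. Hist1h3a stood at 41.7 and 45.1 CPM against 2.74 and 3.29 CPM (3.83, SE 0.25). Hist1h1c, which encodes a linker histone, stood at 39.4 and 47.6 CPM against 146 and 140 CPM (-1.68, SE 0.17), and Hist1h2bc at 6.76 and 6.18 CPM against 36.4 and 40.9 CPM (-2.59, SE 0.29). For both genes the S-phase sums of both mice lay below both resting sums, and in Hist1h1c the G2/M level (117 and 93.2 CPM) lay between the others.

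**Figure D3:**
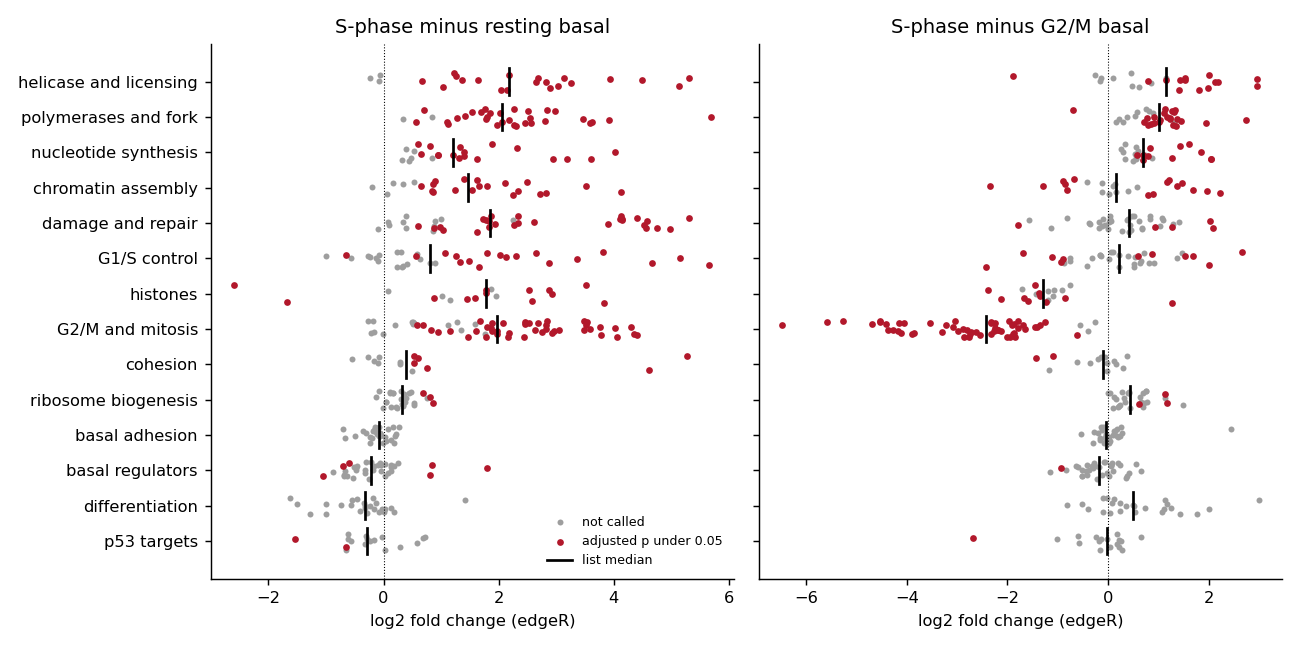
Log2 difference of every tested gene of 14 lists between S-phase and resting basal KCs (left) and between S-phase and G2/M basal KCs (right). Red points passed the test at an adjusted p under 0.05, grey ones did not, and black bars are list medians. The helicase (median 2.18) and fork (2.06) lists lie to the right against resting cells, and the mitosis list changes side between the panels (1.97 and -2.44).

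Against G2/M basal KCs, which lie later in the cycle, 199 genes (2.13%) were higher in S-phase basal KCs and 290 (3.11%) were lower. The G2/M cells had been chosen by 3 mitotic genes, and nothing is read from the count of mitosis genes, of which 55 of 58 were lower in S phase (median -2.44). Cdc20, an activator of the anaphase-promoting complex, stood at 23.6 and 24.1 CPM against 492 and 503 CPM (-4.38, SE 0.17), and Cenpa differed by -5.27 (SE 0.19). Top2a differed less, by -1.78 (SE 0.14), and Smc2 by -0.62 (SE 0.13), so these genes had reached a larger part of their G2/M level in S phase.

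Some replication genes were lower in G2/M than in S-phase basal KCs, and for others no difference was called. Helicase and licensing genes were higher in 13 of 23 and lower in 1, and fork genes were higher in 22 of 33 and lower in 1. Nucleotide synthesis genes were higher in 11 of 23 and lower in 0. Chromatin assembly genes were higher in 9 of 24 and lower in 6. Repair genes were higher in 4 of 38 and lower in 1, and G1/S control genes higher in 6 of 35 and lower in 5. Lig1 was at 59.0 and 36.8 CPM in G2/M (1.96, SE 0.20) and Ccne1 at 17.4 and 14.4 CPM (2.00, SE 0.24). Chaf1b, of the chromatin assembly factor, differed by 1.97 (SE 0.17), Hells by 2.22 (SE 0.25) and Dscc1, which helps to load the clamp, by 2.74 (SE 0.32). In contrast, Rrm1 stood at 142 and 128 CPM in G2/M and differed by 0.34 (SE 0.14), Tk1 by 0.29 (SE 0.19) and Asf1b by -0.11 (SE 0.20), and none of these 3 passed the test. Among cells of 11461 to 15606.5 UMIs, of which S-phase basal KCs had 28 and 61 and G2/M basal KCs 21 and 31, the helicase list had 6 higher and 1 lower of 20, and the fork list 5 higher of 32, beside 1.69% higher and 3.19% lower of all 6802 genes tested there.

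Some genes of the replication, chromatin assembly, repair and G1/S control lists were higher in G2/M than in S phase. Dbf4, the activating subunit of the Cdc7 kinase, stood at 56.3 and 47.0 CPM in S-phase and 180 and 194 CPM in G2/M basal KCs (-1.88, SE 0.17), while Cdc7 itself differed by 1.15 (SE 0.36) and did not pass the test. H2afx, the histone variant phosphorylated at breaks, stood at 68.7 and 71.1 CPM against 359 and 357 CPM (-2.35, SE 0.16), and Hmgb2 at 1039 and 880 CPM against 2374 and 2348 CPM (-1.30, SE 0.15). Cdkn2d differed by -2.43 (SE 0.18), Cdkn2c by -1.70 (SE 0.24) and the checkpoint kinase Chek2 by -1.78 (SE 0.35). Of 18 histone genes, 9 were lower in S-phase than in G2/M basal KCs, and 1, Hist1h3a, was higher (1.28, SE 0.25).

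Outside all lists, the rule for named genes gave 8 genes with the largest difference in each direction. The higher ones were Aunip, Pbk, Slfn9, Fignl1, Cenph, Zfp367, Cit and Ercc6l. Pbk, a mitotic kinase, stood at 68.7 and 68.0 CPM against 1.57 and 2.47 CPM in resting cells (5.01, SE 0.28), and Cenph, a kinetochore subunit, at 72.1 and 86.5 CPM against 3.52 and 5.07 CPM (4.19, SE 0.20). Slfn9, of the Schlafen family, stood at 72.1 and 84.0 CPM against 3.43 and 4.59 CPM in resting and 25.2 and 15.4 CPM in G2/M basal KCs, and so was called against both (4.26, SE 0.23, and 2.02, SE 0.25). Zfp367 was called against both as well (4.06, SE 0.30, and 2.13, SE 0.34). The gene 2810417H13Rik (Pclaf, the PCNA clamp-associated factor), which the rule for names left out and which was chosen after its value was seen, stood at 355 and 311 CPM against 6.46 and 8.43 CPM (5.45, SE 0.22).

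The lower ones were Hist3h2a, Vim, Rassf10, Tmem230, Sema6a, Mccc1, Rnf114 and Kdm7a. Vim, vimentin, stood at 6.76 and 9.89 CPM against 34.4 and 37.6 CPM in resting cells (-2.04, SE 0.30), and at 4595 and 3579 CPM in the melanocytes, and the part of melanocyte RNA in the difference was not tested. Rassf10 stood at 22.5 and 18.5 CPM against 49.3 and 61.0 CPM (-1.46, SE 0.26), but differed by -0.33 among cells of middle depth and was not called there. Hist3h2a (-1.78, adjusted p = 0.066) and Mccc1 (-1.45, adjusted p = 0.077) were not called there either. Kdm7a was called there (-2.13) but not at an S-phase sum of 12 (-1.08, adjusted p = 0.15). Against G2/M, Chd3os (Rnf227), Atm and Zmynd19 were the other higher genes. Atm, the kinase that signals DNA breaks, stood at 30.4 and 28.4 CPM in S-phase, 6.94 and 4.79 CPM in G2/M and a mean of 13.4 CPM in resting basal KCs (2.37, SE 0.32, against G2/M). Pif1, Cdkn3, Sapcd2, Fam64a (Pimreg) and Lockd were lower, and Pif1 had 0 UMIs in S-phase basal KCs of mouse 1 against 21.7 CPM in its G2/M cells.

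Calls among adhesion genes of the basal layer depended on the cells and the fit. None of 28 adhesion genes tested passed the test against resting or G2/M basal KCs, with medians of -0.08 and -0.04. Of all genes, 6.71% were higher and 1.07% lower against resting basal KCs, and 2.13% and 3.11% against G2/M basal KCs. Krt15, a basal keratin, stood at 4119 and 3519 CPM against 6580 and 5495 CPM in resting basal KCs (-0.66, SE 0.28), which did not pass the test, but it was called among cells of middle depth (-0.75). In that set 7 of 28 adhesion genes were lower, Jup, plakoglobin, among them (-1.06), beside 2.23% of all 6802 genes tested there. Dsc3, a desmosomal cadherin, differed by -0.49 (SE 0.18; adjusted p = 0.14) and passed with the mouse as a block (adjusted p = 0.030). Without cells of 5 or more Krt79 UMIs, Dsc3 (-0.51, adjusted p = 0.013) and Dst, dystonin of the hemidesmosome (-0.49, adjusted p = 0.048), were lower. Itga6 (-0.01) and Col17a1 (0.08) had differences near 0.

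Among 35 basal regulators, 3 were higher and 3 were lower than in resting cells, beside 6.71% and 1.07% of all genes. Stmn1, stathmin, which takes microtubules apart, stood at 953 and 851 CPM against 240 and 277 CPM (1.80, SE 0.14) and rose further in G2/M, to 1739 and 1718 CPM. Notch1, a receptor that promotes leaving the basal layer, stood at 79.9 and 122 CPM against 162 and 176 CPM (-0.70, SE 0.17), and its target Hes1 at 55.2 and 43.9 CPM against 115 and 86.8 CPM (-1.06, SE 0.18). In both genes the S-phase values lay below the resting values in both mice. Klf5, a transcription factor of basal KCs, differed by -0.60 (SE 0.13). Dcn, decorin, was not called over all cells (0.18, adjusted p = 0.86), but was higher among cells of middle depth (1.78, adjusted p = 5.6e-05). Trp63, the master factor of stratified epithelia, was at 173 and 159 CPM against 208 and 185 CPM and did not pass the test (-0.24, SE 0.14).

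H19 and Igf2, neighbouring imprinted growth genes, were the other higher genes of the list, and their differences depended on the depth of the cells compared. H19 stood at 783 and 896 CPM in S-phase against 419 and 514 CPM in resting basal KCs (0.85, SE 0.21; adjusted p = 0.028), and Igf2 at 143 and 148 CPM against 82.0 and 85.1 CPM (0.80, SE 0.19; adjusted p = 0.019). Among cells of middle depth the differences were -0.18 for H19 (adjusted p = 0.58) and -0.10 for Igf2 (adjusted p = 0.81). Within resting basal KCs, H19 was at 99.7 and 275 CPM in cells under 6000 UMIs and at 788 and 782 CPM in cells of 10000 to 13000, but at 269 and 438 CPM in the 29 and 31 cells of 17000 to 30000. In mouse 2 it was lowest, at 168 CPM, in cells of 6000 to 8000, so that the relation to depth was not a steady one. Within S-phase basal KCs it was at 262 and 296 CPM in 22 and 50 cells of 10000 to 13000 UMIs and at 992 and 1281 CPM in 23 and 43 cells of 13000 to 17000. Sox4, a progenitor transcription factor, went the other way with depth, from 461 and 336 CPM to 268 and 292 CPM over those bins of S-phase cells. Against all resting cells Sox4 differed by -0.64 (SE 0.19; adjusted p = 0.064, and 0.013 with the mouse as a block), and among cells of middle depth by 0.14. What sets the relation to depth was not tested.

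**Figure D4:**
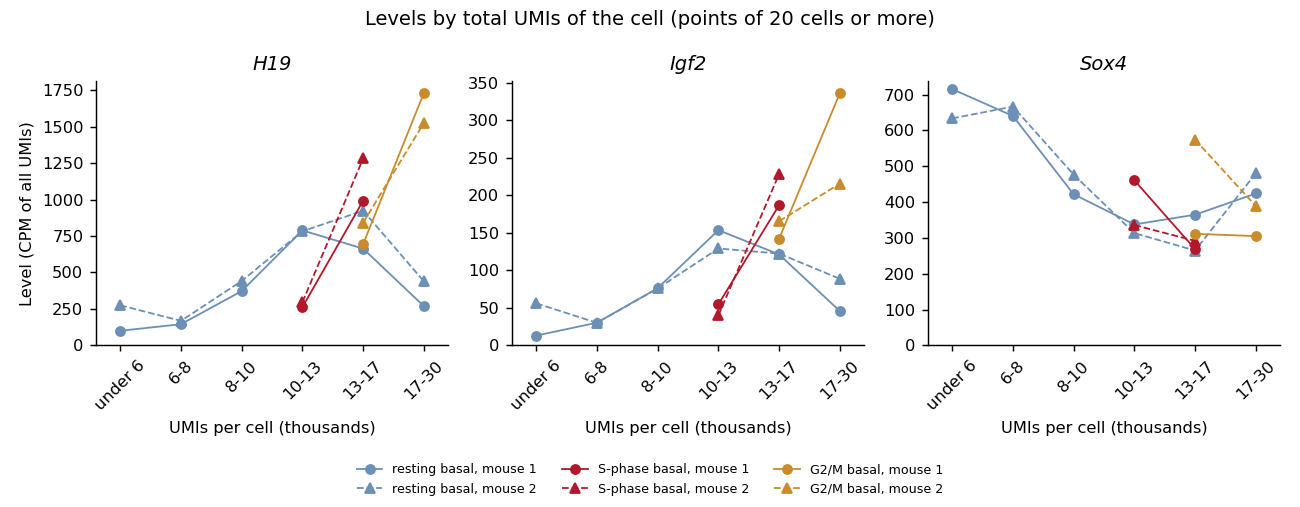
CPM of H19, Igf2 and Sox4 in resting, S-phase and G2/M basal KCs of each mouse, by the UMIs of the cell (x axis, bins of UMIs per cell, with points of at least 20 cells only). In S-phase cells H19 rises from 262 and 296 CPM at 10000 to 13000 UMIs to 992 and 1281 CPM at 13000 to 17000, and Sox4 falls.

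Genes of differentiation gave no call among 25 tested (37 in the list), with a median of -0.32 against resting and 0.51 against G2/M basal KCs. The shares over all genes were 6.71% higher and 1.07% lower against resting cells, and 2.13% and 3.11% against G2/M cells. With edgeR 1881 of all 9332 genes had an unadjusted p under 0.05 against resting cells, and DESeq2 also called 0 of the 25. Krtdap, an early suprabasal gene, stood at 1199 and 2479 CPM in S-phase, 1413 and 1953 CPM in resting and 1018 and 1187 CPM in G2/M basal KCs, above the 134 and 380 CPM of melanocytes. Lor, loricrin of the cornified envelope, stood at 29.3 and 64.3 CPM against 55.5 and 252 CPM in resting cells, but at 45.7 and 117 CPM in the melanocytes, and is read as background in S-phase cells. With the mouse as a block, Lor (-1.67, adjusted p = 5.6e-04), Elovl4 (-1.23, adjusted p = 0.010), Cst6 (-1.29, adjusted p = 0.029) and Ppl (-0.40, adjusted p = 0.032) were lower. Without cells of 5 or more Krt79 UMIs and without the block, Elovl4 differed by -0.32 (adjusted p = 0.63), Cst6 by -0.53 (adjusted p = 0.52) and Ppl by -0.49 (adjusted p = 0.076), and Lor by -1.65 (adjusted p = 0.035). Among cells of middle depth 13 of 19 were lower than in resting cells and none was higher, beside 2.23% lower and 6.56% higher of all genes tested there.

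Of 5 upper follicle and stress keratins tested, none was called against resting basal KCs over all cells, beside 6.71% higher and 1.07% lower of all genes. Against G2/M basal KCs 1 was higher, beside 2.13% of all genes. Among cells of middle depth, Krt79 (-5.33, adjusted p = 1.8e-07) and Krt16 (-2.42, adjusted p = 0.021) were lower than in resting cells. Of all genes tested there 2.23% were lower. Krt6a stood at 12.4 and 82.8 CPM in S-phase, 40.5 and 17.7 CPM in resting and 4.34 and 1.07 CPM in G2/M basal KCs, so that the mice went opposite ways against resting cells. The Krt6a difference from resting cells depended on which cells were compared, with 0.90 in all cells and 4.03 without cells of 5 or more Krt79 UMIs (adjusted p = 4.1e-05). At middle depth Krt6a had 0 and 0 UMIs in S-phase against 178 and 135 UMIs in resting basal KCs, so that no fold is given.

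Few genes of stress and ribosome production were called, at shares to be read beside the 6.71% of all genes called higher. Of 20 stress and early response genes, 1 was higher, the chaperone Hspa8 (0.48, SE 0.13; adjusted p = 0.046), and this call was lost under 6 alternatives. Jun stood at 1913 and 1235 CPM against 2611 and 2078 CPM (-0.58, SE 0.24). With the mouse as a block Jun (adjusted p = 0.035) and Ier2 (0.042) were lower and Hsp90aa1 (0.019) was higher. Of 28 genes of ribosome biogenesis, 3 were higher than in resting cells, Nolc1 (0.86, SE 0.18), Nop56 (0.81, SE 0.18) and Nop58 (0.69, SE 0.17), with a list median of 0.31, and Nhp2 (0.48) joined them with the mouse as a block (adjusted p = 0.0063). At middle depth Nolc1 (0.68) and Nop58 (0.59) were called, and Nop56 (0.44, adjusted p = 0.30) and Nhp2 (0.06, adjusted p = 0.89) were not. Against G2/M basal KCs 3 of the 28, Fbl, Utp20 and Gnl3, were higher and none was lower (median 0.44), beside 2.13% of all genes called higher.

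Sebaceous markers were lower than in resting cells in 3 of 5 tested, beside 1.07% of all genes. Scd1 stood at 9.01 and 7.42 CPM against 72.2 and 35.1 CPM (-2.73, SE 0.47), Cidea at 0 and 1.85 CPM against 42.1 and 17.1 CPM (-4.58, SE 0.88) and Mgst1 at 29.3 and 36.5 CPM against 107 and 66.0 CPM (-1.36, SE 0.30). Of the resting basal KCs, 107 of 1137 and 89 of 1752 had at least 5 Krt79 UMIs. Without such cells in either population none of the 4 tested was called, beside 2.61% of all genes called lower there, with Scd1 at -0.77 and Mgst1 at 0.10, and Cidea was too low to test. Plin2, of the same list, was called lower with the mouse as a block (-1.28, adjusted p = 0.019) but differed by -0.24 without those cells (adjusted p = 0.75). The counts of the main lists held without them, with 20 of 23 helicase genes, 31 of 32 fork genes and 46 of 58 mitosis genes higher than in resting cells, beside 8.51% of all genes tested there.

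Melanocyte markers summed to 12.4 and 7.42 CPM in S-phase against 55.3 and 44.5 CPM in resting basal KCs, and Langerhans cell markers to 0 and 7.42 CPM against 34.5 and 79.8 CPM, but none was called over all cells without the block. Dermal markers stood at 281 and 194 CPM against 229 and 238 CPM. Pmel stood at 5.63 and 1.24 CPM against 19.5 and 15.3 CPM, and Tyrobp at 0 and 1.24 CPM against 6.17 and 16.2 CPM. With the mouse as a block Pmel (adjusted p = 0.016), Dct (0.016), Tyrobp (5.1e-04), Fcer1g (0.014) and Cd74 (1.5e-04) were lower, as was the p53 target Mdm2 (0.038). Without the block, leaving out cells of 5 or more Krt79 UMIs also gave calls for Pmel (adjusted p = 0.010), Dct (0.010), Tyrobp (0.019), Fcer1g (0.036) and Mdm2 (0.014), and cells of middle depth for Dct (8.4e-04) and Pmel (0.016). Whether doublets or free RNA in resting cells account for them was not tested.

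S-phase basal KCs varied among themselves. Summed over the 80 genes of the helicase, fork and nucleotide lists, the median S-phase cell had 7373 and 6823 CPM (library-size scaled), with a range of 3720 to 11720 in mouse 1 and 2367 to 10553 in mouse 2. All 63 and 112 of 116 lay above the 90th percentile of resting cells (3116 and 3354 CPM), and 19 and 27 lay above the highest resting cell. For the 58 mitosis genes the median S-phase cell had 2545 and 2332 CPM, and 16 of 63 and 7 of 116 lay above the lowest G2/M cell, but none above the median G2/M cell (13930 and 14506 CPM).

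UMIs of cyclin E and Top2a were counted in each S-phase cell without thinning, so that deeper cells could show both more easily. In mouse 1, 32 of 63 had UMIs of both, 9 of cyclin E (Ccne1 or Ccne2) only, 11 of Top2a only and 11 of neither. In mouse 2 the numbers were 58, 11, 25 and 22 of 116. After thinning to 6500 UMIs, 54.0% and 57.8% of S-phase cells had a Top2a UMI (68.3% and 71.6% unthinned), between the 6.16% and 7.47% of resting cells (8.53% and 9.82% unthinned) and the 85.3% and 91.8% of G2/M cells (92.2% and 94.6% unthinned).

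Levels differed between bins of the S-phase sum, also below the limit of the rule. In cells with at most 2 mitotic UMIs, the 80 replication genes went from 2298 and 2397 CPM at a sum of 0 to 1, over 4179 and 4198 CPM at 4 to 7, to 5957 and 5824 CPM at 8 to 11, 7069 and 7141 CPM at 12 to 15 and 7387 and 6220 CPM at 16 and over, which in mouse 2 was below the bin before it. Ccne1, Ccne2 and Cdc6 together went from 3.18 and 3.49 CPM through 13.2 and 20.1 CPM at 4 to 7 and 118 and 80.8 CPM at 12 to 15 to 105 and 129 CPM at 16 and over. Top2a, Mki67 and Cdk1 went from 23.9 and 34.3 CPM through 105 and 68.4 CPM to 504 and 407 CPM. Cells at 4 to 7 (104 and 252 cells) thus had intermediate levels and were in neither the S-phase nor the resting population. The median depth of the bins also went up, from 8511 and 8462.5 UMIs at a sum of 0 to 1 to 14751 and 15418 UMIs at 16 and over. Bins from 8 up also held cells with no Rrm2 UMI, which the rule left out.

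**Figure D5:**
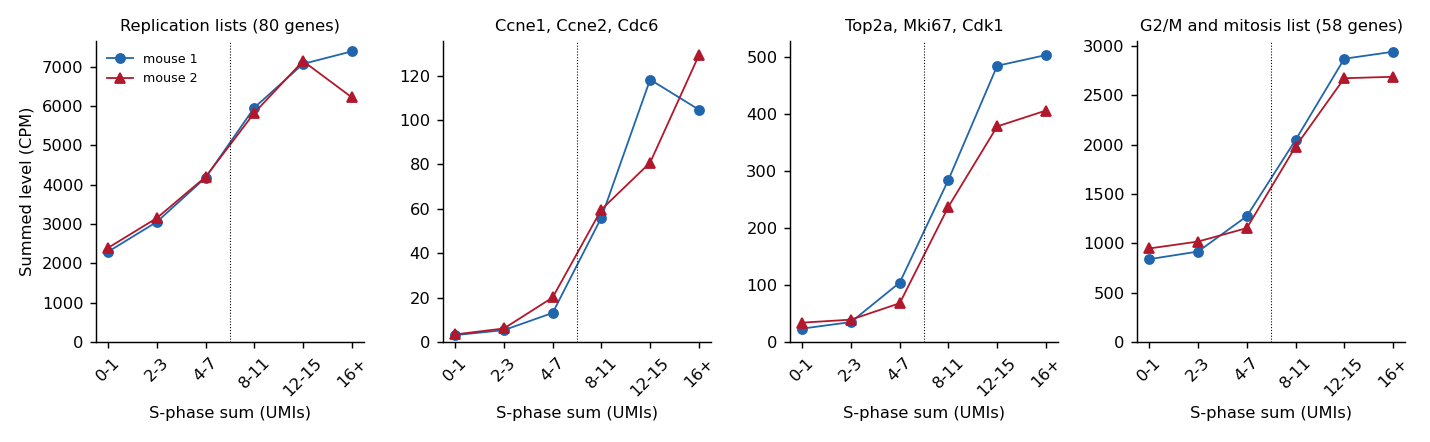
Summed CPM of 4 gene groups in cells of the basal IFE gate with at most 2 mitotic UMIs, by S-phase sum (x axis, bins of UMIs), with 1 line per mouse. The dotted line marks the limit of 8. The replication genes reach 5957 and 5824 CPM in the first bin inside the limit, against 4179 and 4198 CPM in the last bin outside it.

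Compared with S-phase cells of the follicle, S-phase basal KCs differed in 96 genes. None of them was in the helicase, fork, nucleotide, chromatin, repair or histone lists. Of 9332 genes 34 (0.364%) were higher and 62 (0.664%) were lower, and 200 were called with the mouse as a block. Without cells of a doublet score above 0.2, which removed 6 of the 15 follicle cells of mouse 2, 158 were higher and 120 lower. In mouse 1 a single follicle cell held 55645 of the 129621 UMIs. Of the 7 follicle cells of that mouse, 2 had at least 5 Krt79 UMIs, and without these 57268 UMIs were left. Krt79 stood at 5408.5 and 50.2 CPM in the follicle cells. The follicle sums held only 7 and 15 cells and 129621 and 208949 UMIs, so that small differences could not be seen. None of the 23 helicase genes and 33 fork genes tested was called, with medians of 0.30 and 0.33. Clspn, for example, was at 121 and 54.7 CPM in the follicle cells (0.88, SE 0.35; adjusted p = 0.27). Absence of a call does not show equal levels.

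The called genes included 3 of 25 tested of the differentiation list, which were higher, beside 0.364% of all genes. Of 7 follicle markers tested, 3 were lower, beside 0.664% of all genes. Because Lhx2, a follicle gene, divided these populations, the choice favours other follicle markers, and their calls are read as descriptions. H19 stood at 101 and 251 CPM in S-phase follicle cells and was higher in S-phase basal KCs by 2.18 (SE 0.28), and Igf2 by 2.95 (SE 0.49). The median follicle cell had 13341 and 14889 UMIs, against 13709 and 13040.5 in S-phase basal KCs. Wnt10a, a Wnt ligand, stood at 104 and 107 CPM against 20.1 and 31.9 CPM (1.96, SE 0.29), and Ly6d (1.18, SE 0.17), Calm4 (2.11, SE 0.24) and Krtdap (1.44, SE 0.30) of the differentiation list were higher as well. Lower were the follicle factor Sox9, at 22.5 and 24.1 CPM against 416 and 128 CPM (-3.43, SE 0.52), the stem cell receptor Lgr5 (-4.79, SE 0.74) and Sfrp1, a Wnt inhibitor (-4.03, SE 0.41). Ccnd1 stood at 328 and 511 CPM in the follicle cells and differed by -1.81 (SE 0.24), although it was higher in S-phase than in resting basal KCs.

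Outside the lists, Chst15, Defb1, Slc25a48, Endou and Igfbp2 were higher than in the follicle cells, and Egfl6, Fndc1, Adamts19, Sox13 and Pdzrn3 were lower. Igfbp2, which binds insulin-like growth factors, stood at 240 and 197 CPM against 0 and 45.6 CPM (3.00, SE 0.50). Egfl6 had no UMI in S-phase basal KCs, which over both mice allows up to 1.15 CPM, and stood at 26.8 and 31.9 CPM in the follicle cells. Adamts19 stood at 0 and 0.618 CPM against 46.9 and 36.5 CPM. With library size alone as the scaling, 27 genes were higher and 94 lower, and the median of all genes moved from 0.066 to -0.114.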

How the data were processed

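RNA of 2 mice was counted by the authors with Cell Ranger 3.0.2 against mm10, and the deposited unit is counts of UMIs per gene and barcode. Cells were filtered and chosen as described above. The members and the gene lists were chosen with earlier results of these data known. Scrublet scores were compared with a fixed limit of 0.2, set after the scores had been seen because the automatic limit marked 2 of 7607 cells in mouse 1. Counts were summed per mouse and population (8 sums of 129621 UMIs and more) and tested with edgeR 4.0.16 in R 4.3.3 (TMM, filterByExpr, quasi-likelihood test, Benjamini-Hochberg adjustment over 9332 genes, adjusted p under 0.05). The 15 genes of the rule and 13 mitochondrial genes stayed in library sizes but were not tested. The comparisons share the S-phase sums. Replicate numbers pair the sums because both come from the same animals, and the mouse differences of the populations correlated at -0.104 to 0.279 over 5676 genes. Named genes were the rule genes, the 4 members of each list with the smallest p against resting cells and up to 2 called against its direction, the strongest genes outside the lists (8 in each direction, or 5 in the other comparisons), and 16 genes set by hand. The genes outside the lists had to be called, go the same way in both mice and reach a mean of 20 CPM in the higher population. Genes named beyond these rules were chosen after their values were seen. Some genes that the rule names are not reported here.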

Additional observations from a re-analysis of the deposited data

How the results depend on the processing

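The share of S-phase basal KCs was 3.95% and moved with the limits that define them, to 4.41% at an S-phase sum of 6, 2.43% at 12, 4.34% with a sum of 0.05% of UMIs, 2.60% at 5% mitochondrial UMIs and 4.80% without the mitotic limit. Leaving out a mouse gave 3.72 to 4.19%. Against resting basal KCs, 726 genes were called, 1095 with the replicate block, and 116 at 5% mitochondrial UMIs, where 7 and 18 S-phase cells were left. Against G2/M basal KCs, 489 were called, 804 with no filter on low counts and 124 at 5%. Against S-phase follicle cells, 96 were called, 240 with DESeq2, 420 with no filter, 200 with the replicate block, 278 without doublets, 3 at 5% and 170 without cells of 5 or more Krt79 UMIs. The block kept all 726, 489 and 96 reported calls, and its effect on named genes stands beside them. With no filter, 65.8% of calls against resting cells were higher, against 86.2%. Igf2 reversed at 5% mitochondrial UMIs (-0.17) and at middle depth (-0.10), H19 at middle depth (-0.18), Krt6a against resting cells at middle depth (fitted -9.40, which is no fold because the S-phase sums held 0 UMIs) and Mgst1 without Krt79-rich cells (0.10). The causes were not tested, beyond the fewer cells that the 5% limit leaves. The limits of 30000 UMIs, of 2 Lhx2 UMIs and of Krt79 were added after the data had been seen. Leaving out a mouse gave differences with no test, and all 89 called results of named genes kept their direction in each mouse. Genes outside the lists were named only if both mice went the same way, so for them this agreement was set by the choice. Of these 89 results, 67 were the same in every alternative that had a test, not counting the limit of 5% mitochondrial UMIs. Of 106 results of named genes that could be tested under that limit, 32 lost their call and 1 reversed. Follicle cells at middle depth (2 and 1) were too few to compare. With 2 mice, depth limits what can be seen in genes of few UMIs.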
